A study of Mus musculus with 20 samples.

Results

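The genes examined here encode the subunits of the proteasome and its assembly and activator proteins. They were chosen by symbol from the protein-coding genes of the count table, as those named Psma, Psmb, Psmc, Psmd or Psme with a number, leaving out the inducible catalytic subunits Psmb8, Psmb9 and Psmb10. The rule found 40 of the 57010 genes in the table. The samples were livers and kidneys of male UM-HET3 mice, a genetically heterogeneous cross of inbred strains, aged 12 months when dosing began. All mice carried a subcutaneous osmotic minipump for 28 days. In 7c mice the pump delivered 7 small molecules, namely repsox, tranylcypromine, forskolin, CHIR99021, DZNep and TTNPB at 0.1 mg/kg/day each and valproate at 1 mg/kg/day, and in vehicle mice it delivered the solvent, 50% DMSO with 50% PEG300. Poly(A) RNA was sequenced as 1 library per organ, which gave 6 7c and 4 vehicle libraries in each of the 2 tissues, 20 in all. The comparisons ask whether this chemical reprogramming cocktail altered proteasome subunit mRNA in either organ, and how the subunits differed between the organs.

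The proteasome is the large protease that degrades ubiquitin-tagged proteins. Its core particle stacks an outer ring of alpha subunits on each side of inner rings of beta subunits, and the active sites sit in Psmb5, Psmb6 and Psmb7. A regulatory particle caps the core: its base holds the Psmc ATPases, which unfold the substrate, and its lid holds Psmd14, which removes ubiquitin. When proteasome activity falls, the transcription factor Nfe2l1 is cleaved and raises the transcription of many subunit genes together through antioxidant response elements. Liver and kidney are both organs of high protein turnover, and interferon can exchange the catalytic subunits there for the inducible ones of the immunoproteasome.

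Promoter sequences are shown for the members in which the core letters of that element lay on the gene's own strand, since coordinated transcription of the subunits runs through it. RefSeq promoters (250 bases before to 50 after the start, GRCm38.p6) were matched for 33 of the 40 members, and Psmb7 was not among them. The letters TGACNNNGC were searched on both strands and occurred in 6 of the 33, compared with 13.99% of all 27025 genes with a promoter in the table. They stood at position -47 in Psmb5, -9 in Psmb6 and -31 in Psmd9 on the gene's strand, and on the opposite strand in Psmc6, Psmd12 and Psme4. The letters CCAAT occurred on either strand in 13 of the 33 and in 41.1% of all genes. A match is a description of the sequence and not a bound site. The 250 bases before the start of the 3 genes with a match on their own strand are given 5′ to 3′, with TGACNNNGC in capitals, for chr14:54617996-54618245 (minus strand), chr11:70525107-70525356 (plus strand) and chr5:123227940-123228189 (plus strand), in that order.
Psmb5: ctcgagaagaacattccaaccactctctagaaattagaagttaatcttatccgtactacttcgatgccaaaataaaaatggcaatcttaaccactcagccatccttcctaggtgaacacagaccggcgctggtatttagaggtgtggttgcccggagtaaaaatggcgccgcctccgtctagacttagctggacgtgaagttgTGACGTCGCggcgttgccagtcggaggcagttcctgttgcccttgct
Psmb6: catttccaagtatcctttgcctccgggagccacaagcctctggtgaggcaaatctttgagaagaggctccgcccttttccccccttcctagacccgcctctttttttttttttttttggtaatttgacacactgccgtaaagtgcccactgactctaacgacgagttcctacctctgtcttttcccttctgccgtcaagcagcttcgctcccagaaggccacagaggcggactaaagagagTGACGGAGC
Psmd9: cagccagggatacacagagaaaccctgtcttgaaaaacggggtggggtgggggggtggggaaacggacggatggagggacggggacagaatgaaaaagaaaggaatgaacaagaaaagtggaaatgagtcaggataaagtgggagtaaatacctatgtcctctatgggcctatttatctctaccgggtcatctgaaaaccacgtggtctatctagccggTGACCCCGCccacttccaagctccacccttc

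Total counts ranged from 27855849 to 64872451 per library. The hepatocyte marker Alb lay between 62725 and 97839 CPM (counts scaled to library size) in livers, compared with 7.0 to 35.0 CPM in kidneys, and the kidney markers Umod, Slc12a1, Nphs1 and Slc34a1 had 0 counts in every liver. Kidney 7c replicate 5 and kidney vehicle replicate 2 stood apart from the other 8 kidneys in the balance of short against long transcripts, as described with the kidney values, and the organ comparison is given with and without them. The sum of 6 leukocyte markers (Ptprc, Cd68, Adgre1, Cd3e, Cd79a, Cd74) spanned 48.5 to 139 CPM in 7c livers, 57.5 to 107 in vehicle livers, 128 to 332 in 7c kidneys and 126 to 257 in vehicle kidneys. The sum of 4 fat cell markers (Adipoq, Plin1, Lep, Cidec) spanned 4.89 to 28.3 CPM in 7c kidneys and 0.448 to 5.79 CPM in vehicle kidneys, and its part in the kidney values was not tested.

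Proteasome subunits were abundant in both organs. Summed over all 40 members, 7c livers held 4695 ± 411 CPM (SD, n = 6) and vehicle livers 4555 ± 164 CPM (n = 4). In kidney it was 3510 ± 521 CPM (n = 6) with 7c and 3302 ± 545 CPM (n = 4) with vehicle. CPM values here use library sizes scaled by the trimmed mean of M-values (TMM) over all 20 libraries, and in bulk tissue a smaller share of a cell type and less RNA per cell cannot be told apart. The filter on low counts left 39 members for testing in liver and 38 in kidney. The smallest count of any of the 38 members tested in both tissues was 306 in a liver and 692 in a kidney, so counting error was small for all of them. In 22 members another gene overlaps on the opposite strand and in 10 on the same strand, and reads in such overlaps could be divided by the counting.

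**Figure D1:**
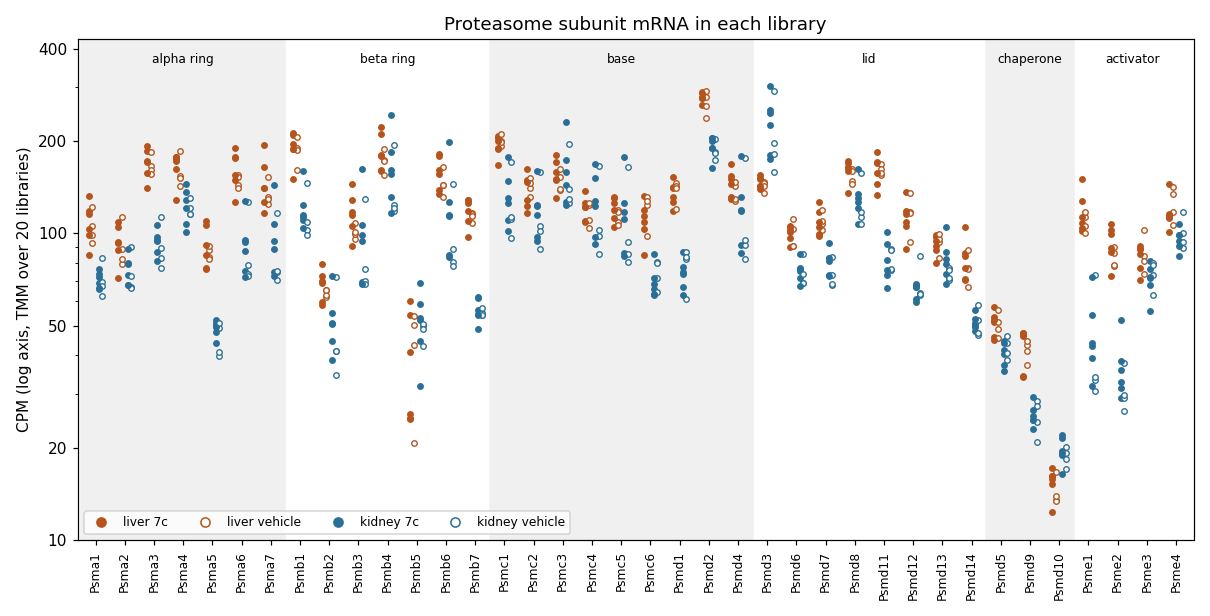
Level of each of 38 proteasome genes in every library, in CPM on a log axis, with orange for liver, blue for kidney, filled points for 7c and open points for vehicle. Within each tissue filled and open points overlap for every gene, Psmb5 spreads most widely in liver, and most alpha subunits and Psme1 and Psme2 sit higher in liver than in kidney.

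The tissue-restricted core subunits stood at the bottom of the range. Psmb11, the catalytic beta subunit of thymic epithelium, had 0 counts in all 20 libraries, where a count of 0 allows up to 3 counts in a library (0.0366 to 0.136 CPM, counting error only). The thymic epithelium markers Foxn1 and Aire were at 0 in every liver, and in kidneys Foxn1 had at most 2 counts and Aire at most 21. Psma8, the alpha subunit of male germ cells, had 32, 66, 39, 86, 19 and 40 counts in 7c livers 1 to 6 and 54, 76, 50 and 0 counts in vehicle livers 1 to 4. The 10 kidneys held between 1 and 24 counts of Psma8, too few to pass the filter there. A gene on the same strand overlaps Psma8. Of the germ cell markers, Sycp3 reached 1.07 CPM at most in livers and had 3.32 to 5.51 CPM in kidneys, while Ddx4 (at most 0.317 CPM) and Dazl (at most 0.181 CPM) were near 0 in both organs.

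Levels of different subunits were compared per length, in TPM, a read density scaled to the same total in every library, with the union of a gene's exons as length. The core particle holds these subunits in equal numbers, and their mRNA levels differed several-fold. In vehicle livers the beta ring ran from 199.5 TPM for Psmb6 to 20.4 TPM for Psmb2, and the order Psmb6, Psmb4, Psmb3, Psmb5, Psmb1, Psmb7, Psmb2 was the same in all 4 groups. In each group 2 of the 6 neighbouring pairs lay within 1 SD of each other, namely Psmb5 with Psmb1 and Psmb1 with Psmb7 in livers, and Psmb6 with Psmb4 and Psmb3 with Psmb5 in kidneys. The alpha ring ran from 198.9 TPM for Psma6 to 46.5 TPM for Psma3 in vehicle livers, and these were the highest and the lowest of the ring in all groups by this length. By the length of the canonical transcript Psma2 was the lowest instead, at 44.4 TPM in vehicle livers, and Psma7 stood just above Psma6 (244.7 against 243.1 TPM). Psmd8 was the highest and Psmd14 the lowest of the lid in all groups by union length, at 149.6 and 25.6 TPM in vehicle livers, although by canonical length Psmd3 stood above Psmd8 in vehicle kidneys (239.9 against 202.6 TPM). Psmd1, the largest scaffold of the base, was the lowest of the base in all groups, at 38.2 TPM in vehicle livers.

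The catalytic subunits showed how far these orders depend on the length used. By union length in vehicle livers Psmb6 (caspase-like site) had 199.5 ± 28.4 TPM, Psmb5 (chymotrypsin-like site) 70.4 ± 26.6 TPM and Psmb7 (trypsin-like site) 56.3 ± 2.5 TPM (SD, n = 4). In vehicle kidneys the same subunits had 181.3 ± 33.6, 110.7 ± 10.1 and 38.0 ± 4.7 TPM (n = 4). With the length of the canonical transcript instead, Psmb7 had 168 TPM and Psmb5 42.5 TPM in vehicle livers, which turns the order of that pair. Psmb6 stood above both in all groups by union length, by canonical length and by the median length of coding transcripts, and Psmd14 and Psmd1 stayed the lowest of the lid and base by each of them. Psmb2 was the lowest of the beta ring by union and canonical length only, since by the median coding length it had 78.0 TPM in vehicle livers, above Psmb5 at 43.6 and Psmb1 at 49.0 TPM.

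The 7c cocktail left the proteasome genes close to their vehicle levels in liver. None of the 39 members passed an adjusted p of 0.05 in edgeR's quasi-likelihood test with Benjamini-Hochberg adjustment (0 of 39, against 1 of 15012 genes or 0.00666%), and 0 had an unadjusted p under 0.05, compared with 3.76% of all genes. The p-values measure the spread between these mice. In 0 members did all 7c livers lie above all vehicle livers, which 0.373% of all genes did, and in 0 did all lie below, which 0.293% did. The log2 fold change of 7c over vehicle was positive in 26 members and negative in 13, with a median of 0.03 against 0.00 over all genes. This median moved with single livers. It was -0.00094 without 7c replicate 1 (19 of 39 positive), 0.00064 without 7c replicate 3 (21 positive), 0.0051 without vehicle replicate 2 (21 positive), 0.019 without vehicle replicate 3, 0.047 without vehicle replicate 1 and 0.081 without 7c replicate 2 (29 positive). The fold change ranged from -0.15 for Psmb5 to 0.24 for Psma8, and the median standard error was 0.11.

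By role, the liver differences were as small in each subcomplex. The alpha ring had 7 of 7 fold changes above 0 (median 0.04), the beta ring 6 of 7 (0.07), the base 5 of 9 (0.03), the lid 3 of 8 (-0.02), the assembly chaperones 2 of 3 (0.01) and the activators 2 of 4 (0.01), and in none of these did a member pass the threshold. Psmb3, a structural beta subunit, had the lowest unadjusted p. It stood at 90.8 (lowest), 116 (median) and 145 (highest) CPM in the 6 7c livers and at 95.5, 108, 99.2 and 101 CPM in vehicle livers 1 to 4. The vehicle livers lay inside the 7c range, and the log2 fold change was 0.19 (SE 0.12, unadjusted p = 0.138, adjusted p = 1.00, edgeR). Psmc6, a base ATPase, came next at -0.15 (SE 0.12, unadjusted p = 0.247), followed by Psme2, the beta subunit of the PA28 activator, at 0.13 (SE 0.11, unadjusted p = 0.273).

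Kidney gave the same picture with a wider spread. Again 0 of 38 members passed the threshold (0 of 17749 genes, 0%), by the same edgeR test, and 463 genes or 2.61% of all had an unadjusted p under 0.05, while 0 members did. No member had its 7c kidneys all above the vehicle kidneys (0.349% of all genes) or all below them (0.366%). The log2 fold change was positive in 29 members and negative in 9, with a median of 0.06 against -0.01 over all genes, from -0.10 for Psmd1 to 0.28 for Psmb6. Single kidneys moved these values: 16 of 38 were positive with a median of -0.013 when 7c kidney 5 was omitted, and 32 with a median of 0.17 when vehicle kidney 2 was. Omitting vehicle kidney 1, 3 or 4 lowered the median to 0.019, 0.016 or 0.037, and omitting 7c kidney 3 or 6 raised it to 0.097 or 0.10. All 7 fold changes of the beta ring and 6 of 7 of the alpha ring were above 0, as were 7 of 9 in the base, 5 of 8 in the lid, 2 of 3 chaperones and 2 of 4 activators.

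**Figure D2:**
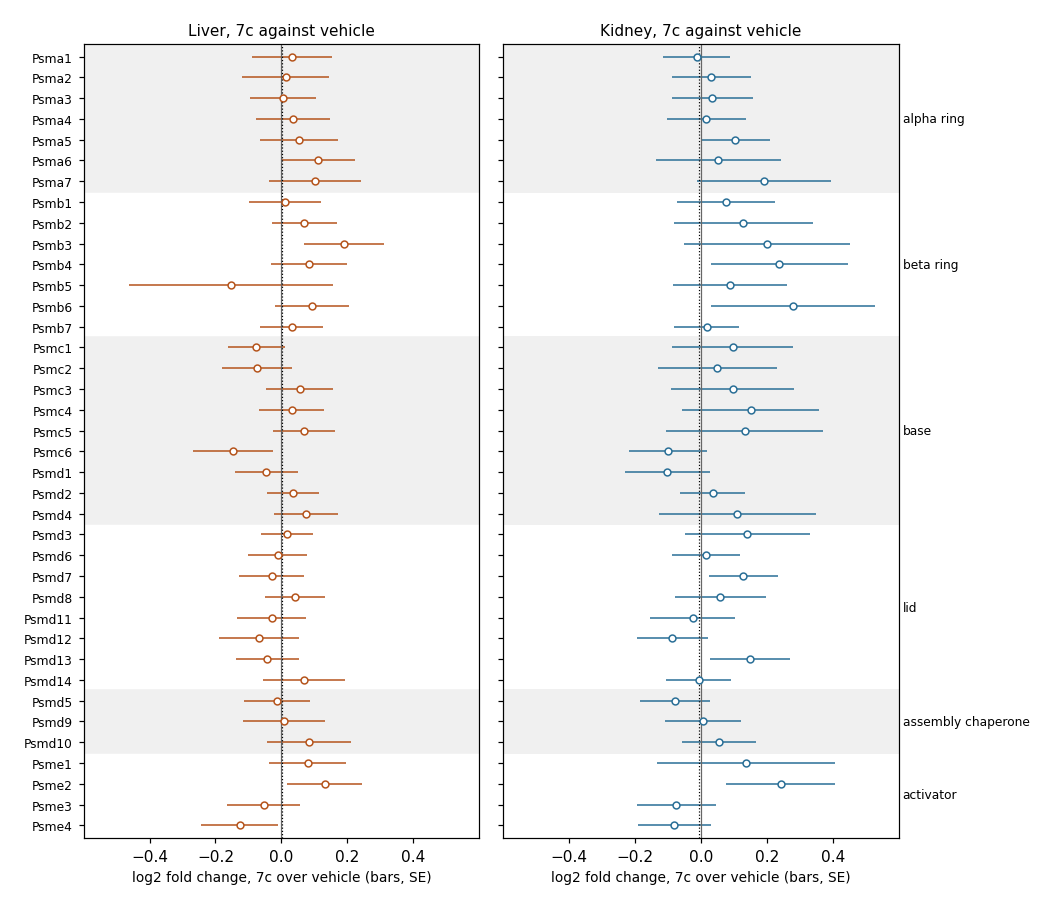
Log2 fold change of 7c over vehicle (points) with its standard error (bars) for 38 members in liver and kidney, grouped by subcomplex, where the dotted line marks the median of all genes. The points lie between -0.15 and 0.28, the bars are widest for Psmb5 in liver, and all points are open because 0 members passed the threshold.

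Psme2 had the lowest unadjusted p in kidney. It stood at 29.1 (lowest), 34.4 (median) and 52.0 (highest) CPM in 7c kidneys and at 29.1, 37.8, 26.4 and 29.7 CPM in vehicle kidneys 1 to 4, which overlap, and the log2 fold change was 0.24 (SE 0.17, unadjusted p = 0.169, adjusted p = 0.997, edgeR). Psmd13 and Psmd7, both lid subunits, followed at 0.15 (SE 0.12, unadjusted p = 0.238) and 0.13 (SE 0.11, unadjusted p = 0.245). Without kidney 7c replicate 5 and vehicle replicate 2, a check chosen after seeing the data, the median became 0.11 and still 0 members passed, with 3 of 38 at an unadjusted p under 0.05, compared with 8.56% of all genes. Leaving out vehicle replicate 2 alone raised the median to 0.17, with 4 of 38 members at an unadjusted p under 0.05, compared with 10.3% of all genes.

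Among the members fixed by role, 0 passed for 7c in either organ. Psmd14, the deubiquitinase of the lid, differed by 0.07 (SE 0.12) on the log2 scale in liver and -0.01 (SE 0.10) in kidney, and Psmc5, a base ATPase, by 0.07 (SE 0.09) and 0.13 (SE 0.24). The ubiquitin-binding base subunits Psmd2 and Psmd4 differed by 0.04 (SE 0.08) and 0.07 (SE 0.10) in liver and by 0.04 (SE 0.10) and 0.11 (SE 0.24) in kidney. The activators Psme1 (PA28 alpha), Psme3 (PA28 gamma, nuclear) and Psme4 (PA200) differed by 0.08 (SE 0.12), -0.05 (SE 0.11) and -0.13 (SE 0.12) in liver and by 0.14 (SE 0.27), -0.07 (SE 0.12) and -0.08 (SE 0.11) in kidney. The base chaperones Psmd5, Psmd9 and Psmd10 spanned -0.01 to 0.08 in livers, and in kidneys -0.08 to 0.05. Psmb6 and Psmb7 differed by 0.09 (SE 0.11) and 0.03 (SE 0.10) in liver and by 0.28 (SE 0.25) and 0.02 (SE 0.10) in kidney.

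The 7c effect was also compared between the organs. The interaction of treatment with tissue passed in 0 of 38 members (1 of 14163 genes, 0.00706%, edgeR's quasi-likelihood test), with a median of -0.05 and a range from -0.25 for Psmb5 to 0.07. The sign of this median depended on single numbers: it was 0.022 with both organs of 7c number 5 omitted, 0.012 with vehicle number 4 omitted and -0.17 with vehicle number 2 omitted. Its lowest unadjusted p belonged to Psmd13 at -0.20 (SE 0.16, unadjusted p = 0.205, edgeR), then Psmd7 at -0.17 (SE 0.15, unadjusted p = 0.259) and Psmc1, a base ATPase, at -0.18 (SE 0.22, unadjusted p = 0.416).

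The organs themselves differed more than the treatments did. In vehicle mice 24 of 39 members were higher in liver and 2 lower at an adjusted p of 0.05 (edgeR's quasi-likelihood test, Benjamini-Hochberg), where 26.8% of all 18598 genes were higher and 31.0% lower. In 7c mice 27 members were higher and 2 lower, where 30.5% of all genes were higher and 33.4% lower. Psma8, which passed the filter largely through the livers, is among those higher, and without it 23 of 38 were higher in vehicle mice and 26 of 38 in 7c mice. The members' median log2 fold change of liver over kidney was 0.52 in vehicle mice and 0.43 in 7c mice, or 0.48 and 0.42 without Psma8. The median of all genes was -0.11 and -0.10. These directions depend on the scaling. With total counts in place of TMM the median of all genes moved to -0.71 and -0.76. The members' median moved to -0.08 and -0.24, or -0.11 and -0.24 without Psma8. The calls became 7 higher and 11 lower in vehicle mice and 7 higher and 19 lower in 7c mice. Each set had 6 of 38 higher when Psma8 is not counted. Under that scaling 14.5% of all genes were higher and 50.8% lower in vehicle mice, and 15.7% and 56.2% in 7c mice. Relative to the median of all genes, 35 of the 38 members other than Psma8 lay higher in liver in each set of mice under either scaling. All genes here are those passing the filter in either organ, 15012 in liver and 17749 in kidney, while these 38 members passed in both. The reference therefore holds more genes found only in kidney than only in liver, which lowers its median and its share called higher. The size of that effect was not tested. Without kidney 7c replicate 5, kidney vehicle replicate 2 and the livers of those numbers, a choice made after seeing the data, 30 of the 38 members other than Psma8 were higher and 2 lower in each set, with medians of 0.61 in vehicle mice and 0.48 in 7c mice. In that fit 25.04% of all genes were higher and 30.2% lower in vehicle mice, and 29.1% and 33.4% in 7c mice, with a median of -0.12 in both.

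On the TMM scale, 21 of the 38 members other than Psma8 passed as higher in liver in both sets of mice (25.6% of all genes). On that scale 2, Psmd10 and Psmd3, passed as lower in both (28.1%). A further 7 passed in 1 set only (Psma2, Psmb2, Psmb6, Psmd5, Psmd8, Psmd13 and Psme3), and 8 passed in neither (Psmb3, Psmb4, Psmb5, Psmc2, Psmc3, Psmc4, Psmc5 and Psmd4). Whether a member's organ difference changes with treatment is the interaction given before, which 0 members passed. The alpha ring was called most uniformly, with 6 of 7 higher in liver in vehicle mice and 7 of 7 in 7c mice on the TMM scale, against 2 higher and 1 lower, and 2 higher and 2 lower, with total counts. The beta ring had 3 of 7 higher in each set (1 higher with 1 lower, and 1 higher with 3 lower, with total counts), and the base 4 of 9 in each (0 higher with 3 lower, and 0 higher with 5 lower). The lid had 6 higher and 1 lower of 8 in each set (1 higher with 3 lower, and 1 higher with 5 lower, with total counts).

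**Figure D3:**
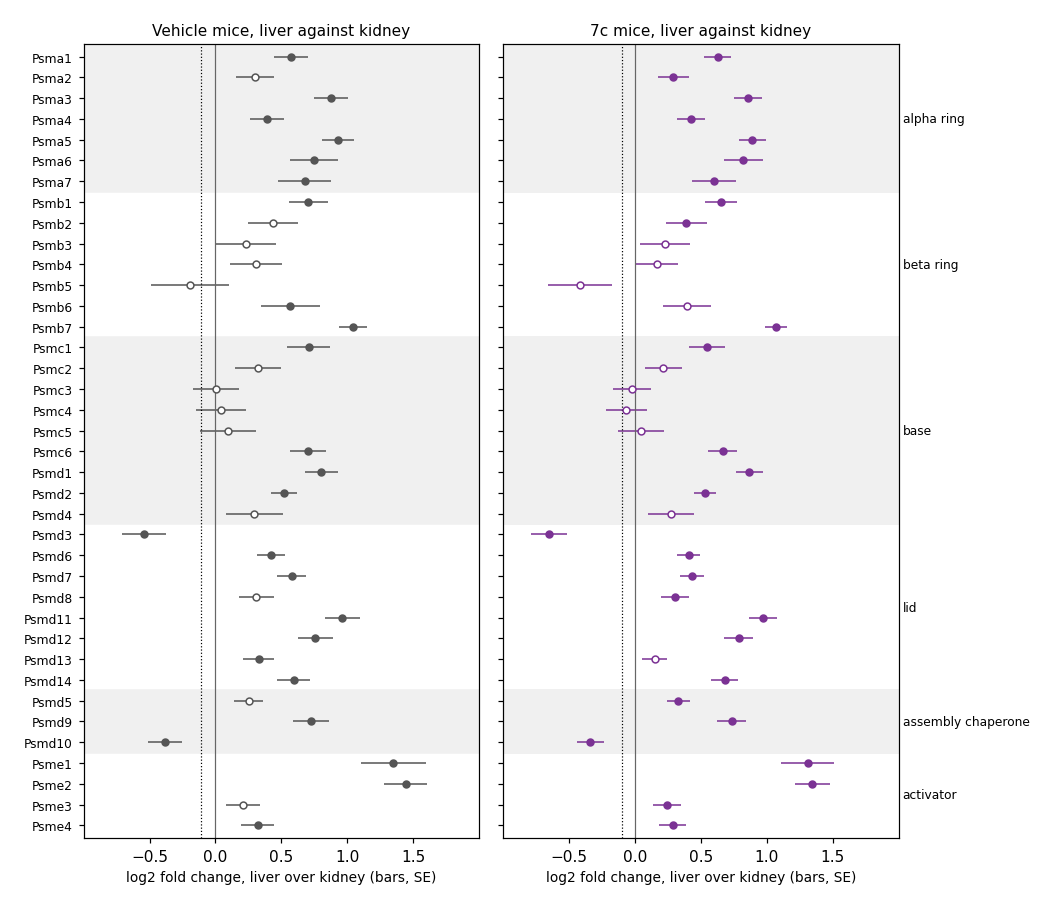
Log2 fold change of liver over kidney (points) with its standard error (bars) for 38 members in vehicle mice and in 7c mice on the TMM scale, where filled points passed an adjusted p of 0.05 and the dotted line marks the median of all genes. Psme1 and Psme2 lie furthest to the right, at 1.35 and 1.44 in vehicle mice, and Psmd3 furthest to the left at -0.54.

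The PA28 activator had the largest fold changes of liver over kidney among the broadly expressed members. Psme2 stood at 78.4, 78.9, 89.98 and 86.5 CPM in vehicle livers 1 to 4 and at 29.1, 37.8, 26.4 and 29.7 CPM in vehicle kidneys 1 to 4. Every liver lay above every kidney, and the log2 fold change was 1.44 (SE 0.16, adjusted p = 1.15e-07, edgeR) in vehicle mice and 1.35 (SE 0.13, adjusted p = 9.68e-09) in 7c mice. Its partner Psme1 stood at 106, 99.9, 113 and 118 CPM in vehicle livers and at 30.7, 73.0, 33.3 and 34.1 CPM in vehicle kidneys. The kidney of replicate 2 was the high one, still below all livers, and the log2 fold change was 1.35 (SE 0.25, adjusted p = 7.68e-05, edgeR) in vehicle mice and 1.31 (SE 0.20, adjusted p = 7.04e-06) in 7c mice. With total counts Psme2 and Psme1 remained higher in liver, at 0.85 and 0.78 in vehicle mice. Psme1 and Psme2 are neighbours on chromosome 14 (GRCm39, chr14:55815190-55822034 and chr14:55824895-55829173). Both are known to be induced by interferon gamma. The leukocyte markers did not move together between vehicle livers and kidneys: Cd74 was lower in livers (42.2 to 84.8 against 114 to 247 CPM) and Adgre1 higher (6.12 to 15.6 against 1.48 to 3.87 CPM), while Cd68 and Ptprc overlapped. Their part in the PA28 values was not tested.

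The other activators differed less. Psme4 had 0.32 (SE 0.12, adjusted p = 0.0336, edgeR) in vehicle mice and 0.29 (SE 0.10, adjusted p = 0.0177) in 7c mice, and Psme3 had 0.21 (SE 0.13, adjusted p = 0.168) and 0.24 (SE 0.11, adjusted p = 0.0499). Both turned negative with total counts, at -0.29 and -0.41 in vehicle mice.

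Psmb7 (ENSMUSG00000026750, chr2:38478044-38534099) had the lowest p of all members in both sets of mice. It stood at 116, 116, 108 and 114 CPM in vehicle livers and at 54.1, 54.8, 57.1 and 54.4 CPM in vehicle kidneys. The groups were far apart and each was tight, with a log2 fold change of 1.04 (SE 0.10, adjusted p = 1.69e-08, edgeR), and 1.07 (SE 0.09, adjusted p = 2.85e-10) in 7c mice. With total counts it was 0.44 in vehicle mice. Its catalytic partner Psmb6 (ENSMUSG00000018286, chr11:70416183-70418684) stood at 131, 144, 144 and 164 CPM in vehicle livers and at 80.7, 145, 78.5 and 89.0 CPM in vehicle kidneys, so that kidney replicate 2 reached the liver range. Psmb6 passed in vehicle mice at 0.57 (SE 0.22, adjusted p = 0.0349, edgeR) and had 0.40 (SE 0.18, adjusted p = 0.0631) in 7c mice, and with total counts it was -0.01 and -0.25. Psma5, an alpha subunit, and Psmd11, a lid scaffold, were higher in liver by 0.93 (SE 0.12, adjusted p = 1.33e-06) and 0.96 (SE 0.13, adjusted p = 1.53e-06) in vehicle mice, and by 0.33 and 0.36 with total counts.

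Psmd3, a lid scaffold, and Psmd10, the base chaperone gankyrin, ran the other way under both scalings. With total counts they had -1.12 and -0.99 in vehicle mice, where the median of all genes was -0.71. The values that follow are on the TMM scale. Psmd3 stood at 146, 135, 146 and 143 CPM in vehicle livers and at 181, 291, 159 and 197 CPM in vehicle kidneys, with every kidney above every liver. The log2 fold change was -0.54 (SE 0.17, adjusted p = 0.00911, edgeR) in vehicle mice and -0.65 (SE 0.14, adjusted p = 0.000297) in 7c mice. Without vehicle replicate 2, whose kidney was the highest, it was -0.30 (adjusted p = 0.128) in vehicle mice. Psmd10 stood at 16.7, 13.5, 13.4 and 13.9 CPM in vehicle livers and at 17.1, 18.4, 20.2 and 19.3 CPM in vehicle kidneys, again without overlap, and differed by -0.38 (SE 0.13, adjusted p = 0.0143, edgeR) in vehicle mice and by -0.34 (SE 0.10, adjusted p = 0.00728) in 7c mice. With vehicle replicate 2, 3 or 4 left out, Psmd10 no longer passed in vehicle mice (highest adjusted p = 0.0922, edgeR). The other base chaperones went the opposite way on the TMM scale, Psmd9 at 0.72 (adjusted p = 8.77e-05) and Psmd5 at 0.25 (adjusted p = 0.0544) in vehicle mice, though with total counts Psmd5 turned to -0.36 and Psmd9 fell to 0.12, no longer passing (adjusted p = 0.375, edgeR).

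Psma8 entered the comparison of organs largely through the livers, where its counts were high, so its difference is described by the counts given above, with no test. Of the 10 livers 9 held 19 to 86 counts and vehicle liver 4 held 0, which lay below every kidney, so the groups overlapped. Of the other subunits fixed by role, Psmd14 had 0.59 (adjusted p = 0.000341, edgeR) in vehicle mice, Psmd2 0.52 (adjusted p = 0.000132) and Psmc5 0.10 (adjusted p = 0.723), with Psmd4 at 0.30 (adjusted p = 0.246), and with total counts all of these were below 0.

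Psmb5 (ENSMUSG00000022193), the chymotrypsin-like subunit and the target of proteasome inhibitor drugs, varied more between livers than any other member tested in both tissues. It stood at 54.3, 41.1, 60.3, 24.9, 25.01 and 25.9 CPM in 7c livers 1 to 6 and at 43.2, 20.8, 50.4 and 53.7 CPM in vehicle livers 1 to 4. The livers fell into 4 at or below 25.9 CPM, of which 3 were 7c and 1 vehicle, and 6 at or above 41.1 CPM, with no liver in between. Its coefficient of variation over the 10 livers was 36.8%, against the 38 members tested in both tissues, whose median was 10.8% and next highest 16.1% (Psma7). In kidney Psmb5 stood at 58.8, 52.0, 44.7, 52.9, 68.7 and 31.7 CPM with 7c and at 49.8, 50.4, 42.9 and 48.8 CPM with vehicle, without such a gap. The kidneys of 7c replicates 4 and 5 and of vehicle replicate 2 were not low, while that of 7c replicate 6 was the lowest.

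The 7c comparison in liver gave Psmb5 a log2 fold change of -0.15 (SE 0.31, unadjusted p = 0.629, edgeR), the largest standard error of the 38 members. Liver over kidney it had -0.19 (SE 0.30, adjusted p = 0.607) in vehicle mice and -0.42 (SE 0.24, adjusted p = 0.140) in 7c mice. Without vehicle replicate 2, which held the lowest liver, the vehicle value became 0.07. With total counts Psmb5 passed as lower in liver in both sets. It had -0.78 (adjusted p = 0.0290, edgeR) in vehicle mice and -1.06 (adjusted p = 0.000732) in 7c mice, where 50.8% and 56.2% of all genes passed as lower.

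The same 4 livers were also the lowest for some neighbouring genes. Within 150 kb of Psmb5 (GRCm39, chr14:54850776-54855481, minus strand), 11 genes were tested in liver, and in 2 of them, Cebpe and Ajuba, the same 4 livers were the lowest. Over all genes tested in liver this held for 71 of 15012, or 0.473%. Cebpe, a myeloid transcription factor gene 92.3 kb away, stood at 11.5, 7.99, 4.01, 0, 0 and 0 CPM in 7c livers 1 to 6 and at 6.32, 0.0729, 5.17 and 7.99 CPM in vehicle livers 1 to 4. In counts these were 274, 198, 99, 0, 0 and 0 with 7c and 155, 2, 150 and 225 with vehicle. The 4 livers that were low for Psmb5 had almost no Cebpe reads, and the other 6 had 99 or more. Ajuba, which encodes a LIM-domain scaffold protein, ran from 4.56 to 5.90 CPM in those 4 livers and from 6.53 to 14.8 CPM in the other 6, without a clear gap. Both neighbours were picked after their values were seen. The mice are genetically heterogeneous, and no genotype was analysed here, so its part in these values was not tested.

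**Figure D4:**
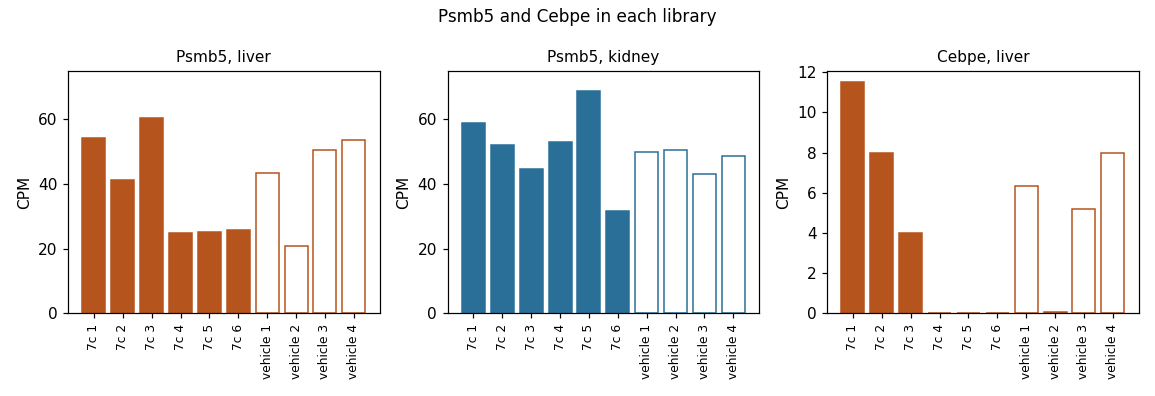
CPM of Psmb5 in the 10 livers and 10 kidneys and of Cebpe in the 10 livers, 1 bar per library, filled for 7c and open for vehicle. Livers 7c 4, 5 and 6 and vehicle 2 are low for both genes, between 20.8 and 25.9 CPM for Psmb5 and between 0 and 0.0729 CPM for Cebpe, while the kidneys show no such gap for Psmb5.

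Many members moved together from library to library within a tissue. Liver 7c replicate 1 was the highest liver for 21 of 39 members and liver 7c replicate 2 the lowest for 23, where these libraries were highest for 13.0% and lowest for 10.6% of all genes. Kidney 7c replicate 5 was the highest kidney for 25 of 38 members, compared with 20.2% of all genes. Kidney 7c replicate 5 and vehicle replicate 2 were the top pair of the 10 kidneys for 21 of 38 members, compared with 15.8% of all genes, and the bottom pair for 3 (Psmd1, Psme3 and Psme4), compared with 15.1%. The sum over all members in these libraries was 4403 and 4112 CPM, and between 2898 and 3684 CPM in the other 8 kidneys.

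Transcript length differed along the same libraries. For each library the median deviation of short protein-coding genes (canonical transcript under 1000 bases) minus that of long ones (over 4000 bases) was set beside the members' median deviation from their tissue mean, both on the log2 scale. Kidney 7c replicate 5 had 0.69 for the length measure and 0.31 for the members, and kidney vehicle replicate 2 had 0.63 and 0.25. The other kidneys ran from -0.44 to 0.24 for length and from -0.19 to 0.09 for the members. In liver, 7c replicate 1 had 0.27 and 0.20, 7c replicate 3 had 0.28 and 0.11, and 7c replicate 2 had -0.27 and -0.20. Libraries higher for short genes tended to be higher for the members, with exceptions: liver vehicle 1 had -0.11 and 0.02, and kidney 7c 6 had -0.20 and -0.18 while kidney vehicle 1 had -0.38 and -0.12. The part of transcript length or RNA quality in the members' values was not tested.

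**Figure D5:**
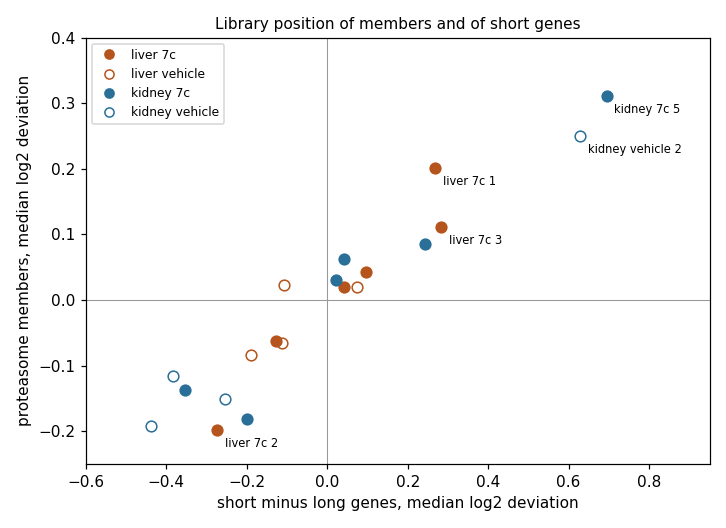
Median log2 deviation of the proteasome members (vertical axis) against that of short minus long protein-coding genes (horizontal axis) in each of the 20 libraries, each measured from the tissue mean, with orange for liver, blue for kidney, filled for 7c and open for vehicle. Kidney 7c 5 (0.69, 0.31) and kidney vehicle 2 (0.63, 0.25) lie at the upper right, and the other points scatter around a rising trend.

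Variation within a tissue also differed by member. In liver the coefficient of variation was lowest for Psmd3, at 4.01%. In kidney its median was 13.1%, and it ran from 6.87% for Psmb7 to 35.0% for Psme1, with Psmb6 next at 33.9%. Between liver and kidney libraries of the same group and number, 10 pairs in all, the correlation of a member's level was positive in 12 of 38 members. It passed in 0 of 38 (0 of 14163 genes, permutation test with 100000 resamples, Benjamini-Hochberg). With 100000 resamples and adjustment over 14163 genes, the smallest p available was too large for any gene to pass alone. The 0 of 38 therefore cannot decide whether a member is correlated between the organs, and the values are given as a description. Psmd11 had the highest Pearson r, 0.72 (permutation p = 0.0592, adjusted p = 0.740), with a Spearman rho of 0.66 (permutation p = 0.0894). Without the 2 pairs farthest from the median its r was 0.21, so the relation rests on them. At the negative end Psmd3 had an r of -0.67 (permutation p = 0.0522, adjusted p = 0.719) and a rho of -0.61 (permutation p = 0.0883), and without the 2 farthest pairs its r was -0.47. The members' median r was -0.22, against 0.03 over all genes, of which 52.6% were positive. Among the positive values, Psmd5 and Psmd12 followed Psmd11 with an r of 0.52 (permutation p = 0.148) and 0.34 (permutation p = 0.368).

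The immunoproteasome subunits were set against the constitutive subunits whose place they take. Psmb8, Psmb9 and Psmb10 were higher in liver than in kidney in vehicle mice by 1.96 (SE 0.25), 2.38 (SE 0.20) and 1.32 (SE 0.31) on the log2 scale (adjusted p of 8.35e-07, 1.29e-09 and 0.000910, edgeR), and by 1.38, 1.78 and 0.76 with total counts. The 7c fold changes were 0.25, 0.35 and 0.30 in liver and 0.34, 0.25 and 0.39 in kidney, with a lowest adjusted p of 0.997 (edgeR). Ratios use TPM by union length, and their level depends on it: by canonical length Psmb10 had 37.3 and Psmb7 168 TPM in vehicle livers. The ratio of Psmb9 to Psmb6 was 0.116 ± 0.018 (SD, n = 6) in 7c livers and 0.0959 ± 0.0072 (n = 4) in vehicle livers. In 5 of 6 7c livers it was above every vehicle liver, yet the exact two-sided permutation test over 210 splits gave p = 0.0762 (adjusted over 6 ratios 0.314). Omitting 7c liver 3, its lowest 7c value, gave an unadjusted exact permutation p of 0.0159. That was the only 7c liver not above every vehicle liver, so its removal left no overlap and the low p follows from that choice. The ratio of Psmb10 to Psmb7 was 1.05 ± 0.14 against 0.874 ± 0.130 in liver (exact permutation p = 0.105, adjusted 0.314), a log2 difference of 0.26. Omitting vehicle liver 1 gave 0.16, and omitting either 7c liver 5 or vehicle liver 2 gave 0.33 (exact permutation p = 0.0238 and 0.0476, not adjusted). Without both of these it was 0.41 (exact permutation p = 0.0179, the smallest that 56 splits allow, adjusted over 6 ratios 0.107). That of Psmb8 to Psmb5 was 0.384 ± 0.155 against 0.303 ± 0.179 (exact permutation p = 0.386, adjusted 0.463), and its higher values fell in the livers low for Psmb5. Among vehicle livers replicate 2 had 0.571 and the others 0.206 to 0.227, and the log2 difference of 0.39 became 0.75 when it was omitted (exact permutation p = 0.0833) and 0.73 when 7c liver 5 was omitted as well (exact permutation p = 0.161). Omitting 7c liver 4 or vehicle liver 1 or 3 gave 0.25 to 0.26. In kidney the 3 ratios gave exact permutation p values of 0.881 (Psmb9 to Psmb6), 0.329 (Psmb10 to Psmb7) and 0.195 (Psmb8 to Psmb5), and the smallest p that the design allows is 0.00476. Without 7c kidney 5 and vehicle kidney 2 their log2 differences were -0.18, 0.59 and 0.39 (exact permutation p = 0.571, 0.125 and 0.0536, lowest adjusted 0.161). Leaving out 1 kidney gave 0.26 to 0.74 for Psmb10 to Psmb7.

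Other genes of the pathway were taken from a list of 35 immunoproteasome subunits, further 19S subunits, assembly factors, ubiquitin genes, shuttle factors and regulators, of which 34 were tested. They include Psmb8, Psmb9 and Psmb10. For 7c, 0 of 34 passed in liver (0.00666% of all genes), in kidney (0%) or for the interaction (0.00706%), by edgeR with Benjamini-Hochberg adjustment. An unadjusted p under 0.05 was seen in 3 of 34 in liver and 1 of 34 in kidney, against 3.76% and 2.61% of all genes. In liver the lowest unadjusted values were those of Zfand5, a proteasome-binding zinc finger protein (-0.34, unadjusted p = 0.00992, edgeR), Psmb9 (0.35, unadjusted p = 0.0266) and Ecpas, an adaptor of the proteasome (-0.27, unadjusted p = 0.0489). Nfe2l1, the regulator of subunit transcription, differed by -0.01 (SE 0.09) in liver and 0.13 (SE 0.11) in kidney. Pomp, the core maturation factor, differed by 0.17 (SE 0.09) and 0.18 (SE 0.18), and the remaining subunits Adrm1, a ubiquitin receptor, and Sem1, a small lid subunit, by 0.04 (SE 0.10) and 0.24 (SE 0.15) in liver.

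Between organs, 23 of the 34 were higher and 2 lower in liver in vehicle mice, and 23 higher and 3 lower in 7c mice, with medians of 0.45 and 0.48 on the TMM scale, where 26.8% of all genes were higher and 31.0% lower in vehicle mice and 30.5% and 33.4% in 7c mice. With total counts the calls were 8 higher and 11 lower, and 9 higher and 13 lower, beside 14.5% and 50.8%, and 15.7% and 56.2%, of all genes. Without the 3 immunoproteasome subunits, 20 of 31 were higher in each set on the TMM scale, and 5 and 6 with total counts. Pomp was higher by 1.07 (SE 0.16, adjusted p = 8.71e-06, edgeR) and Sem1 by 0.54 (SE 0.20, adjusted p = 0.0221) in vehicle mice, whereas Adrm1 had -0.00 (SE 0.20, adjusted p = 0.999), and with total counts these became 0.48, -0.04 and -0.58. Nfe2l1 had 0.27 (SE 0.12, adjusted p = 0.0488) in vehicle mice and 0.14 (SE 0.09, adjusted p = 0.195) in 7c mice, and turned to -0.34 and -0.52 with total counts. Ddi2, the protease that cleaves Nfe2l1, was higher in vehicle livers by 1.79 (SE 0.14, adjusted p = 1.98e-10, edgeR) on the TMM scale and by 1.18 with total counts. Fbxo7, a ubiquitin ligase subunit, had -2.31 (SE 0.14, adjusted p = 4.38e-12, edgeR) and -2.92.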

How the data were processed

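Liver and kidney RNA was measured by strand-specific poly(A) RNA-seq in 20 libraries. The authors deposited raw gene counts, made per the submitters' processing notes with STAR 2.7.11b, featureCounts 2.0.6 and GRCm39. The annotation release and the strand setting of the counting are not given in the sources used here, and symbols, lengths and positions came from GENCODE. Every column matched 1 sample (0 did not), and depth ranged from 27855849 to 64872451 counts. Counting error was not compared with the spread between mice.

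Groups followed the sample labels. Genes with 10 counts or more in at least 50% of the libraries of a tissue passed the filter in that tissue. Tests used edgeR 4.0.16 (R 4.3.3), with TMM scaling, the quasi-likelihood test and Benjamini-Hochberg adjustment over all genes tested, with calls at 0.05. For 7c against vehicle each tissue was fitted alone. For the interaction and for liver against kidney all libraries were fitted together. The interaction took the 14163 genes passing in both tissues, and liver against kidney the 18598 passing in either. Ratios were compared by exact permutation in scipy 1.17.1, and correlations by 100000 permutations on log2(CPM + 0.5). The script was tested on simulated counts. Alternatives were RLE size factors, total counts, other filters, DESeq2 1.42.0, limma 3.58.1 (voom), the likelihood ratio test, a replicate block, other gene lengths and leaving out each replicate. Leaving out kidney 7c replicate 5 and vehicle replicate 2 together, and the canonical transcript length, were added after seeing the data. Members and lists were chosen with earlier results of these data known. Genes described in full were the catalytic, ATPase, deubiquitinase, ubiquitin-binding, activator, chaperone and tissue-restricted subunits, and per comparison the 3 members of lowest p and, between organs, the 3 highest and 3 lowest fold changes.

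Tests between organs did not pair liver and kidney libraries by number. Libraries of the same group and number deviated together above a correlation of 0.1 in 7 of 10 cases (-0.005 to 0.29). The numbers served only the replicate block, the correlations between organs, given as a description, and the leaving out of libraries.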

Additional observations from a re-analysis of the deposited data

Results flagged for a closer look

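Within groups of 4 to 10 libraries, a value whose gap to its nearest neighbour exceeded Dixon's limit was set aside for a closer look, which chance does in about 1 in 20 groups. This held for 26 of the 198 groups of values tested (13.1%), and 17 of the 26 lay in kidney vehicle replicate 2. That kidney stood above the other vehicle kidneys for Psma6 (126 CPM), Psma7 (117), Psmb3 (130), Psmb4 (194), Psmb6 (145), Psmc5 (164), Psmd4 (176), Psmd12 (84.1) and Psme1 (73.0), and below them for Psmd1 (60.9 CPM). Its summed levels were also apart, at 1501 CPM for the core particle, 710 for the alpha ring, 792 for the beta ring, 111 for PA28 alpha and beta and 4112 for all members. Its ratios were 0.0770 for Psmb8 to Psmb5 and 1.31 for Psmb10 to Psmb7.

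In the 7c kidneys, replicate 5 stood high for Psmb1 (160.0 CPM) and Psmb6 (198), replicate 3 high for Psmc6 (85.6) and replicate 6 low for Psmd2 (164). In the 7c livers, replicate 2 stood low for Psma4 (128 CPM) and Psmd8 (135) and high for Psme4 (144). Vehicle liver 1 stood high for Psmd10 (16.7 CPM), and vehicle liver 2 for the ratio of Psmb8 to Psmb5 (0.571), which is the liver with the lowest Psmb5. What sets these libraries apart was not tested.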

How the results depend on the processing

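Of 771 values under an alternative, 730 were classed as unchanged. For a single member or ratio this meant the same direction and side of the threshold. For a count of members it allowed a limited fold change. For a median it allowed any shift smaller than its spread between libraries (0.18 for 7c in kidney, 0.11 otherwise), even one that turned the sign. No alternative put a member past the threshold for 7c in liver or kidney or for the interaction, while over all genes DESeq2 called 6 in liver and 18 in kidney. With total counts the members higher and lower in liver became 7 and 11 in vehicle mice (median -0.085) and 7 and 19 in 7c mice (median -0.24). Not counting Psma8, 6 of 38 were higher in each set. Of all genes 14.5% were then higher and 50.8% lower in vehicle mice, and 15.7% and 56.2% in 7c mice. Without a filter the members' median in 7c mice lay 0.70 above that of all genes. Psmb5 in vehicle mice turned to 0.031 without both kidneys that stand apart and the livers of those numbers. Among the livers left out there, vehicle liver 2 held the lowest Psmb5. Leaving out the liver and kidney libraries of 1 number gave medians of -0.17 to 0.022 for the interaction, 0.46 to 0.66 for liver against kidney in vehicle mice and 0.37 to 0.54 in 7c mice, 0 to 2 members lower in liver in vehicle mice, and -0.34 to 0.067 for Psmb5 in vehicle mice. The log2 ratios of 7c over vehicle ranged over 0.17 to 0.40 for Psmb8 to Psmb5 and -0.30 to 0.091 for Psmb9 to Psmb6 in kidney, and over 0.20 to 0.33 for Psmb9 to Psmb6 and 0.16 to 0.33 for Psmb10 to Psmb7 in liver. The last was 0.41 without the livers that share the numbers of those kidneys (exact permutation p = 0.0179, the smallest possible, adjusted 0.107). By the median length of coding transcripts and by the canonical length, Psmb5 had 43.6 and 42.5 TPM in vehicle liver and 70.7 and 72.4 in kidney, and Psmb7 158 and 168 in liver and 110 and 123 in kidney. By canonical length Psmb6 had 242 TPM in liver and 237 in kidney. The cause of these shifts was not tested, apart from the length itself.

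With a replicate block in place of unpaired libraries, 0 members passed for 7c (medians 0.03 in liver and 0.05 in kidney) or for the interaction (-0.06). Between organs 24 were higher and 2 lower in vehicle mice (median 0.52, 0.66 above all genes) and 26 and 2 in 7c mice (0.43, 0.56 above). Without Psma8 23 of 38 were higher in vehicle mice (median 0.51) and 25 of 38 in 7c mice (median 0.43). In that fit 25.9% of all genes were higher and 29.9% lower in vehicle mice, and 29.5% and 32.8% in 7c mice. As to pairing, 7 of 10 libraries correlated best with their own number, a hint from the data and not the design. Group sizes of 6 and 4 limit what 7c differences can be seen: the standard errors were 0.08 to 0.31 in liver and 0.10 to 0.27 in kidney outside Psma8. Overlapping genes and the unknown strand setting could shift single members.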
